A study of Homo sapiens with 8 samples.

Results

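PAX8-AS1 is a long noncoding RNA (lncRNA) gene on the strand opposite PAX8. Its locus was described here from 2 of the 15469 loci with values, PAX8-AS1 itself (ENSG00000189223; chromosome 2, 113211421 to 113276581, plus strand of GRCh38) and the overlapping row LXLOC_030447 (chromosome 2, 113211401 to 113241410, plus strand), a locus that carries a name of the authors' own. Both were measured in all 8 libraries, and both were chosen by the difference between JQ1 and vehicle in LM3, since PAX8-AS1 was among the largest falls in earlier results from those cells. The LM3 values of both members are therefore given as a description, with no test. The groups, each of 2 libraries, were HepG2 treated with JQ1, HepG2 given the DMSO vehicle, LM3 treated with JQ1 and LM3 given the DMSO vehicle. HepG2 and LM3 are established human lines that the labels call hepatocellular carcinoma, and the labels state neither the dose nor the duration of JQ1. Nothing in the labels ties the replicates to separate cultures, so a p-value reflects the spread of these libraries alone, and that spread may be technical.

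PAX8 is a paired-box transcription factor best known for its part in the development of the thyroid, the kidney and the female genital tract, and most of its antisense gene lies within PAX8. Antisense RNAs of this kind are transcribed from the same stretch of chromatin as the gene they overlap, in the opposite direction. JQ1 is an inhibitor of BET bromodomains, the modules by which this protein family reads acetylated histones. The series title concerns lncRNAs of super-enhancers, which are dense clusters of enhancers, and the comparison asks how lncRNA levels differ after JQ1.

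In GENCODE 29 PAX8-AS1 has 20 transcripts, of 434 to 11799 bases, and 93% of the span in the tables lies inside PAX8 (113215997 to 113278950, minus strand). LXLOC_030447 spans 30010 bp, of which 99.9% lies inside the 65161 bp of PAX8-AS1, and the shared stretch is 46% of PAX8-AS1. It begins 121 bp before the first annotated start of PAX8-AS1, that of transcript PAX8-AS1-208, and ends exactly where transcript PAX8-AS1-205 ends. It holds 30.3% of the exonic bases of PAX8-AS1, so reads in those exons may have been counted for both rows. Of the 17274 exonic bases of PAX8-AS1, 685 (3.97%) also lie in exons of PAX8, and there reads of the RNAs on opposite strands cannot be told apart unless the counting used strand, which no source used here states.

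The sequences at the annotated starts are shown because most of the 20 transcripts begin in them. PAX8-AS1-208 is the 1 transcript that starts at 113211522, beside the start of LXLOC_030447. A cluster of 11 transcripts starts between 113235425 and 113235545, and another 2 start at 113236237 and 113236269. The first exon of PAX8-AS1-208 (chr2:113211522-113211619, plus strand, from the GENCODE 29 transcript, 98 bases) has its 2 CpG dinucleotides in capitals:
PAX8-AS1-208 first exon: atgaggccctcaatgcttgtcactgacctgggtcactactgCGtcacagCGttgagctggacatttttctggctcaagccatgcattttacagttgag
The RefSeq window from 250 bases before to 50 bases after the start at 113235527 (chr2:113235277-113235576, plus strand, GRCh38.p14) has in capitals its only match among the 4 motifs searched, a GC box core:
PAX8-AS1 window at 113235527: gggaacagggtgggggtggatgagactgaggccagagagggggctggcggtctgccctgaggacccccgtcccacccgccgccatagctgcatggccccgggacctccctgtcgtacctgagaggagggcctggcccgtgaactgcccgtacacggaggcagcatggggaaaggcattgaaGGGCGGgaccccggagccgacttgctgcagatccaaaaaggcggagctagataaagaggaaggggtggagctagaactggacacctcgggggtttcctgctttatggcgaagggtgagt
The corresponding window at the start at 113236269 (chr2:113236019-113236318, plus strand, GRCh38.p14) has in capitals the 6 copies of its commonest 12-base word:
PAX8-AS1 window at 113236269: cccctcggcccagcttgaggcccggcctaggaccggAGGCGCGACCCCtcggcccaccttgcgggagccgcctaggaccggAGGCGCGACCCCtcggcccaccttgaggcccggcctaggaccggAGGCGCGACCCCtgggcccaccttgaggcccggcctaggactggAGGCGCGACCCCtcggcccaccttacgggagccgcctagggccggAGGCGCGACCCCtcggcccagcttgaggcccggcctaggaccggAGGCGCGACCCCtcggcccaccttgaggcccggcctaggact
The promoter window of PAX8 itself (chr2:113278872-113279171, minus strand, GRCh38.p14), shown for comparison, has its 2 CCAAT boxes in capitals:
PAX8 window: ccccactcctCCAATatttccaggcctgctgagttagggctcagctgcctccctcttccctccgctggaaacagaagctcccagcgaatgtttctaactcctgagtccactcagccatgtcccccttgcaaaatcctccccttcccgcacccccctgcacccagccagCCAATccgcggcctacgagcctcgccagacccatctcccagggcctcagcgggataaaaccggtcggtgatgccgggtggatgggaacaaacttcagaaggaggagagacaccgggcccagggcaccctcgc

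The first PAX8-AS1 window overlaps PAX8 exons over 232 of its 300 bases, 183 of them coding, whereas the second overlaps none and lies wholly inside PAX8-AS1 exons. The second window is built of a repeat: the 12-base word recurs every 44 to 45 bases, and of the 167 bases that have a base 133 positions further on, 95.8% equal it. Only 10 of the 35116 RefSeq windows, this one included, reach that identity at any offset from 10 to 150 bases. Its 32 CpG dinucleotides and 76.7% GC lie above those of 81.1% and 93.1% of windows, against 15 CpG and 64.3% GC in the first window and medians of 14 CpG and 58.7% GC over all windows. The motifs were searched on both strands. The TATA box core TATAAA occurs in 11.5% of all windows, the CCAAT box in 34.6%, the GC box core GGGCGG in 45% and the E-box CACGTG in 7.26%. Neither PAX8-AS1 window holds a TATA box core, a CCAAT box or this E-box, and a match or its absence describes only these letters.

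**Figure D1:**
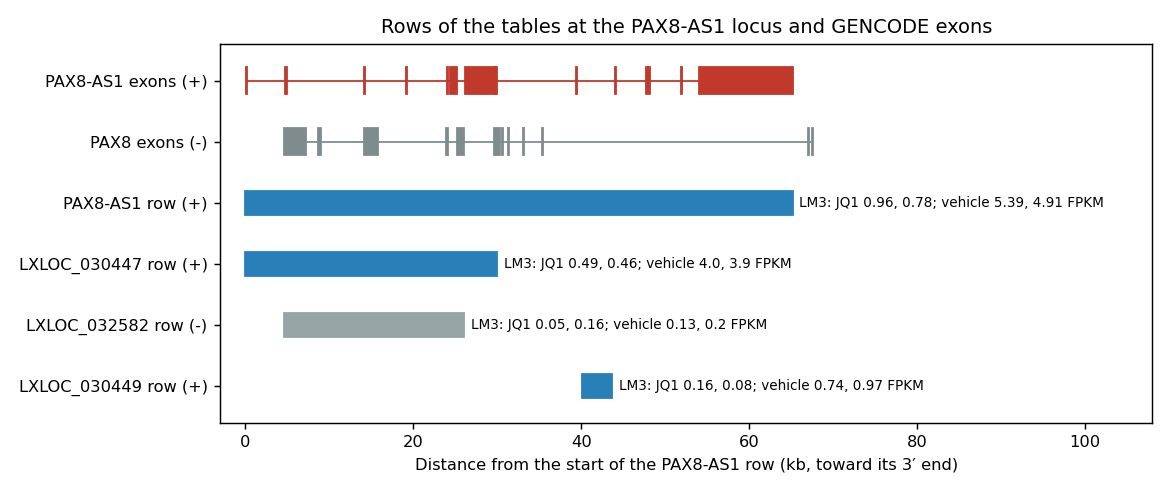
Map of the PAX8-AS1 locus by distance in kb from the start of the PAX8-AS1 row, with merged GENCODE exons of PAX8-AS1 (plus strand) and PAX8 (minus strand) as boxes and the 4 rows of the tables as bars, each with its FPKM in the LM3 libraries. LXLOC_030447 covers the first 46% of PAX8-AS1, and the row on the PAX8 strand, LXLOC_032582, was at 0.05 to 0.20 FPKM.

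In LM3, PAX8-AS1 was at 0.96 and 0.78 FPKM (fragments corrected for transcript length and sequencing depth) in the JQ1 libraries of replicates 1 and 2, against 5.39 and 4.91 FPKM in the vehicle libraries. The JQ1 libraries were below the vehicle libraries without overlap, as for 28% of all loci with values in LM3. PAX8-AS1 was below 1 FPKM in both JQ1 libraries. The means were 0.870 ± 0.127 FPKM with JQ1 and 5.15 ± 0.339 FPKM with vehicle (SD, n = 2 each, here and below), so 16.9% of the vehicle level was measured with JQ1, and between 14.5% and 19.6% over the pairs of single libraries. LXLOC_030447 was at 0.49 and 0.46 FPKM with JQ1, against 4 and 3.90 FPKM with vehicle, 12% of the vehicle level and 11.5% to 12.6% over the pairs. On the log2(FPKM + 0.5) scale, which understates changes of low loci, the difference between JQ1 and vehicle was -2.05 (SE 0.11) for PAX8-AS1 and -2.19 (SE 0.087) for LXLOC_030447. Of the 6474 loci tested in LM3, 15.4% were called lower and 7.92% higher with JQ1 at an adjusted p under 0.05 in limma, and 8 had a difference of -2 or below, both members among them. The members' place in that tail is what chose them, and nothing is read from it.

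In HepG2 both members were below 1 FPKM in all 4 libraries. PAX8-AS1 was at 0.36 FPKM in both JQ1 libraries, against 0.80 and 0.89 FPKM in the vehicle libraries of replicates 1 and 2. LXLOC_030447 was at 0.19 and 0.22 FPKM with JQ1, against 0.80 FPKM in both vehicle libraries. The direction was the same as in LM3. The JQ1 libraries were below the vehicle libraries without overlap for both members, as for 24.4% of all loci with values in HepG2. These libraries were not those that singled the locus out, although their values were known when it was chosen. PAX8-AS1 fell to 42.6% of the vehicle mean (40.4% to 45.0% over the pairs), a log2 difference of -0.64 (SE 0.10; adjusted p = 0.0191 in limma over 5906 loci), and LXLOC_030447 fell to 25.6% (23.8% to 27.5%), a log2 difference of -0.88 (SE 0.12; limma adjusted p = 0.0127). Of all loci tested in HepG2, 14.2% were called lower and 10.8% higher with JQ1, and 537 had a lower log2 difference than PAX8-AS1 and 246 a lower one than LXLOC_030447.

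Neither HepG2 call held throughout when single libraries were left out. Such a fit leaves 1 library in a group and lost most calls over all loci, so nothing about the members is read from it. The log2 difference then ran from -0.69 to -0.60 for PAX8-AS1 and from -0.91 to -0.85 for LXLOC_030447. The means over the 4 HepG2 libraries, 0.603 FPKM for PAX8-AS1 and 0.502 FPKM for LXLOC_030447, lay just above the 0.5 FPKM required for testing. Only the vehicle libraries carried them over it, with vehicle means of 0.845 and 0.80 FPKM and JQ1 means of 0.36 and 0.205 FPKM. Both members thus entered the test through the group where they were high. Without the filter the limma adjusted p was 0.0423 for PAX8-AS1 and 0.0237 for LXLOC_030447.

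Ordered by level, PAX8-AS1 was highest in LM3 with vehicle (5.15 ± 0.339 FPKM), followed by LM3 with JQ1 (0.870 ± 0.127 FPKM), HepG2 with vehicle (0.845 ± 0.0636 FPKM) and HepG2 with JQ1 (0.36 FPKM in both libraries). The middle neighbours, LM3 with JQ1 and HepG2 with vehicle, overlapped library by library. For LXLOC_030447 they did not, at 0.475 ± 0.0212 FPKM in LM3 with JQ1 and 0.80 FPKM in both HepG2 vehicle libraries. Levels of the lines come from separate tables, which may have been scaled separately, so they were set side by side with no test. Within each table, the vehicle mean of PAX8-AS1 was above that of 94.6% of the loci with values in LM3 and of 74.0% in HepG2. The corresponding shares for LXLOC_030447 were 92.9% and 72.6%.

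**Figure D2:**
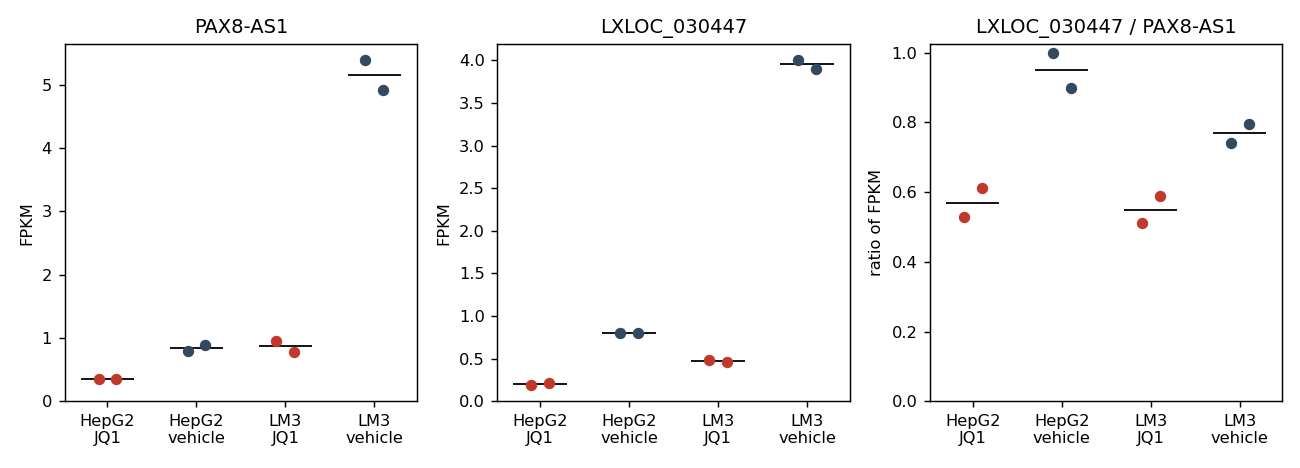
FPKM of PAX8-AS1 and of LXLOC_030447, and their ratio, in each library, with a line at the mean of each group of 2. Vehicle-treated LM3 stands above the other 3 groups for both members (3.90 to 5.39 FPKM), and the ratio is lower with JQ1 in each line.

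The members did not fall in equal proportion. The ratio of LXLOC_030447 to PAX8-AS1 was 0.528 and 0.611 in the HepG2 JQ1 libraries, against 0.899 and 1.00 in the HepG2 vehicle libraries. In LM3 it was 0.510 and 0.590 with JQ1, against 0.742 and 0.794 with vehicle. The ratio was thus lower in each JQ1 library than in each vehicle library of its line, and the JQ1 means of the lines were close, 0.550 ± 0.0561 in LM3 and 0.569 ± 0.0589 in HepG2. A ratio within a library does not depend on its scaling. It is a description, since both rows may share reads and the LM3 fall of PAX8-AS1 chose them. At 2 libraries against 2, an exact two-sided permutation test cannot go below p = 0.333.

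The response was larger in LM3 than in HepG2 on the log2(FPKM + 0.5) scale, with differences of -2.05 in LM3 and -0.64 in HepG2 for PAX8-AS1, and of -2.19 and -0.88 for LXLOC_030447. The LM3 fall is what chose the locus, which favours a larger response there, so nothing is read from this order. LM3 minus HepG2 was -1.40 (SE 0.14) for PAX8-AS1 and -1.31 (SE 0.11) for LXLOC_030447, given with no test. With a pseudocount of 0.1 in place of 0.5 these were -1.40 and -1.25, and with 1 they were -1.28 and -1.17. As plain ratios of means, vehicle over JQ1, the values were 5.92 in LM3 and 2.35 in HepG2 for PAX8-AS1, and 8.32 and 3.90 for LXLOC_030447.

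**Figure D3:**
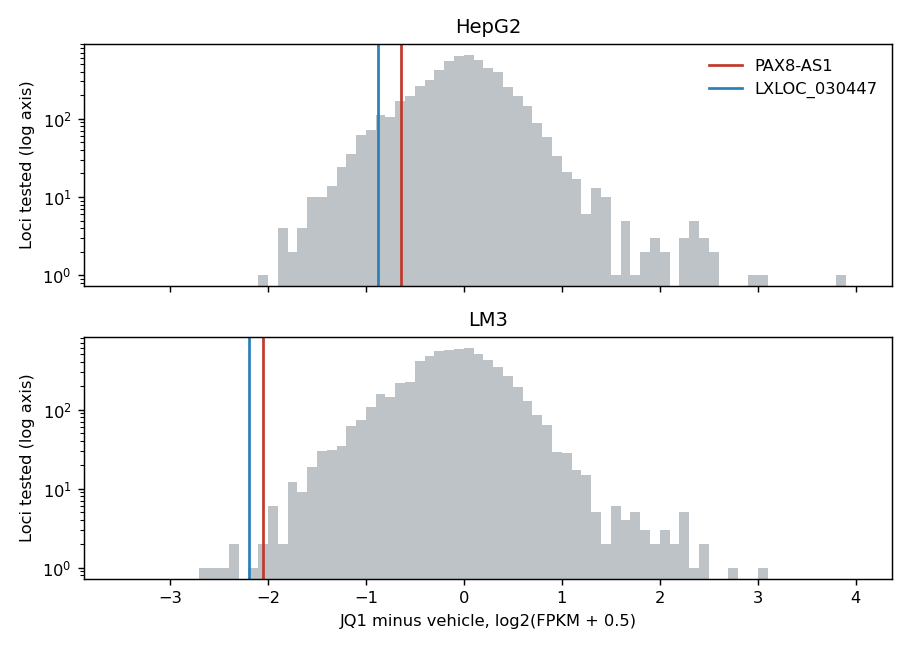
Histograms of the JQ1 minus vehicle difference in log2(FPKM + 0.5) for all loci tested in HepG2 (5906) and LM3 (6474), on a log axis of locus counts, with lines at PAX8-AS1 and LXLOC_030447. The lines stand at -0.64 and -0.88 in HepG2 and at -2.05 and -2.19 in LM3, where few loci lie further left. The place of the lines in LM3 is what chose the members.

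The remaining 2 rows inside the span of PAX8-AS1 were low. LXLOC_030449 (113251492 to 113255070, plus strand) has 0 bases in annotated exons of PAX8-AS1 or PAX8. In LM3 it was at 0.16 and 0.08 FPKM with JQ1, against 0.74 and 0.97 FPKM with vehicle, and in HepG2 at 0.05 and 0.02 FPKM, against 0.07 and 0.15 FPKM. Its JQ1 libraries were below its vehicle libraries without overlap in each line, as for 28% of all loci with values in LM3 and 24.4% in HepG2. Its mean was below the 0.5 FPKM required, so it was not tested. LXLOC_032582 (113215997 to 113237508, minus strand) shares the strand and the 3′ end of PAX8 and covers 5805 bases of PAX8 exons. It was at 0.05 and 0.16 FPKM with JQ1, against 0.13 and 0.20 FPKM with vehicle in LM3, and in HepG2 at 0.12 and 0 FPKM, against 0 FPKM in both vehicle libraries. The row on the PAX8 strand was thus at or below 0.20 FPKM in all 8 libraries, and its groups overlapped in LM3. PAX8 itself was not analysed here.

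Beyond the gene, 20 other rows with values lay within 500 kb, 9 on the side of the PAX8-AS1 start and 11 beyond its end. With the 2 rows inside the gene they made 22, of which 12 passed the filter in LM3 and 5 in HepG2. LINC02936 (ENSG00000227359; 113677702 to 113704078, minus strand), 401121 bp beyond the end of PAX8-AS1, rose in both lines. It was at 1.39 and 1.71 FPKM with JQ1, against 0.65 and 0.70 FPKM with vehicle in LM3 (log2 difference 0.80, SE 0.12, limma adjusted p = 0.0189), and at 1.27 and 1.30 FPKM, against 0.74 and 0.48 FPKM in HepG2 (log2 difference 0.70, SE 0.14, limma adjusted p = 0.0317). No other neighbour was called by limma in either line: 1 of 12 in LM3 and 1 of 5 in HepG2, beside 23.3% and 25.1% of all loci called in either direction. At an unadjusted p under 0.05 there were 7 of 12 in LM3 and 1 of 5 in HepG2, beside 40.3% and 40.2% of all loci tested. Of the 7 in LM3, 5 are plus-strand rows close together on the side of the start, between 112776918 and 112838702. Whether they are separate loci was not tested. The LM3 call of LINC02936 was lost whichever library was left out, as was every call over all loci in that line, and its HepG2 call held only without vehicle replicate 1. In HepG2 it was also not called without the filter on low values, and with a filter at 1 FPKM its mean of 0.948 FPKM kept it out. The median log2 difference of the tested neighbours was -0.23 in LM3 and -0.14 in HepG2, beside medians of -0.084 and -0.0056 over all loci tested. By side, it was -0.31 in LM3 over the 8 tested rows before the start and 0.20 over the 4 beyond the end. In HepG2 it was -0.15 for the 1 tested row before the start and 0.19 over the 4 beyond the end.

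The nearest tested row beyond the end of PAX8-AS1 was LXLOC_030450 (113325046 to 113394604, plus strand), 48465 bp away. It was at 1.98 and 2.54 FPKM with JQ1 and at 2.08 and 2.51 FPKM with vehicle in LM3, a log2 difference of -0.021 (limma adjusted p = 0.928). In HepG2 it was at 3.17 and 3.31 FPKM, against 3.66 and 5.35 FPKM, a log2 difference of -0.40 (limma adjusted p = 0.179). LINC02966, which overlaps it on the same strand and whose reads may be shared with it, was too low to be tested. It was at 0.14 and 0.25 FPKM, against 0.34 and 0.24 FPKM in LM3, and at 0.05 and 0.07 FPKM, against 0.44 and 0.54 FPKM in HepG2. Its JQ1 and vehicle libraries thus overlapped in LM3 and stood apart in HepG2. It was 1 of 7 rows beyond the end that were too low to test in both lines. Of these, the JQ1 libraries were below the vehicle libraries without overlap for 2 in LM3 and 2 in HepG2, and above them for 0 in LM3 and 1 in HepG2. In LM3 the lower ones were AC016745.2, at 0.10 and 0.07 FPKM with JQ1, against 0.29 and 0.22 FPKM with vehicle, and FAM138B, at 0.06 and 0 FPKM, against 0.56 and 0.72 FPKM. AC016745.2 was also lower in HepG2, at 0.06 and 0.08 FPKM, against 0.24 and 0.17 FPKM. FAM138B belongs to a family of near-identical copies, so its values are uncertain. Over all loci with values, 28% in LM3 and 24.4% in HepG2 were lower with JQ1 without overlap, and 16.8% and 20.4% were higher. LXLOC_032586 had log2 differences of 0.42 in LM3 and 0.52 in HepG2, and LXLOC_030463 of -0.053 and -0.14, and none of these was called.

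On the other side, the nearest tested rows were 4 plus-strand loci, LXLOC_030434, LXLOC_030433, LXLOC_030432 and LXLOC_030431. LXLOC_030434 lies across IL1B, the inflammatory cytokine gene, on the opposite strand, 372719 bp before PAX8-AS1. It was at 0.56 FPKM in both JQ1 libraries of LM3, against 0.77 and 0.86 FPKM with vehicle (log2 difference -0.31, limma adjusted p = 0.121). The log2 differences of the other 3 in LM3 were -0.33, -0.31 and -0.32, and none was called. All 4 were below the filter in HepG2.

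**Figure D4:**
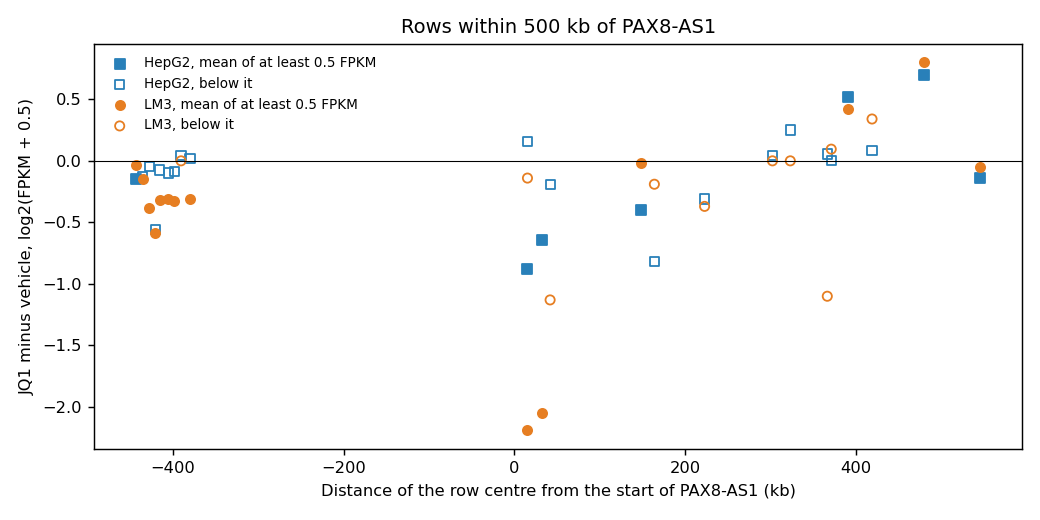
JQ1 minus vehicle difference in log2(FPKM + 0.5) of PAX8-AS1, LXLOC_030447 and the 22 rows within 500 kb in HepG2 (squares) and LM3 (circles), by distance of the row centre from the start of PAX8-AS1 in kb. Open symbols are rows with a mean below 0.5 FPKM, and of the filled symbols those of the 2 members are the lowest. In LM3 that place is what chose them. In HepG2 they are filled only through their vehicle libraries. There the open symbol of LINC02966, at -0.82, lies between PAX8-AS1 at -0.64 and LXLOC_030447 at -0.88.

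PAX8-AS1 was then set beside other lncRNAs, listed from general knowledge as antisense to a transcription factor gene or sharing its promoter region. The placement of each was not checked, and the list also holds transcripts that are intronic by name, KLF7-IT1 among those tested. Of 70 listed, 56 had values, and 22 were tested in LM3 and 21 in HepG2. In LM3 9 fell and none rose, with 13 not called (40.9% called, beside 23.3% of all loci; the median log2 difference was -0.49, beside -0.084). Without the filter on low values, 4 of the 56 with values were called in LM3, beside 825 of all 15469 loci. In HepG2 6 fell and none rose, with 15 not called (28.6%, beside 25.1%; median -0.31, beside -0.0056). FENDRR, the neighbour of FOXF1, was at 1.02 and 1.05 FPKM with JQ1, against 3.35 and 3.44 FPKM with vehicle in LM3 (log2 difference -1.34, SE 0.084, limma adjusted p = 0.00565). ELF3-AS1, antisense to the epithelial factor gene ELF3, was at 0.42 and 0.40 FPKM, against 1.54 and 1.44 FPKM in LM3 (log2 difference -1.13, limma adjusted p = 0.00908). HOXA10-AS in the HOXA cluster fell by 1.17 on the log2 scale in LM3 and by 0.75 in HepG2.

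NR2F1-AS1, paired with an orphan nuclear receptor gene, fell by 0.88 in LM3 and by 0.75 in HepG2 on the log2 scale, and IRF1-AS1, beside an interferon-response factor gene, fell by 0.75 and 1.09. NR2F2-AS1 fell by 0.66 in LM3. FOXN3-AS1 and GATA2-AS1 each fell by 0.37 in HepG2. In LM3, FOXN3-AS1 was at a log2 difference of -0.49 (limma adjusted p = 0.056) and GATA2-AS1 at -0.11 (limma adjusted p = 0.562). Every tested partner lay above PAX8-AS1 in LM3, where its place at -2.05 is what chose it, so nothing is read from that order. In HepG2, which did not single it out, FENDRR, IRF1-AS1, HOXA10-AS and NR2F1-AS1 lay below its -0.64. The difference between lines was tested for 18 of the partners in limma, and 0 passed, with 2 at an unadjusted p under 0.05, while 0.218% of all 5035 loci tested for it passed. With any single library left out, 1 group held 1 library and calls were lost across all loci, so the partner calls could not be checked this way.

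**Figure D5:**
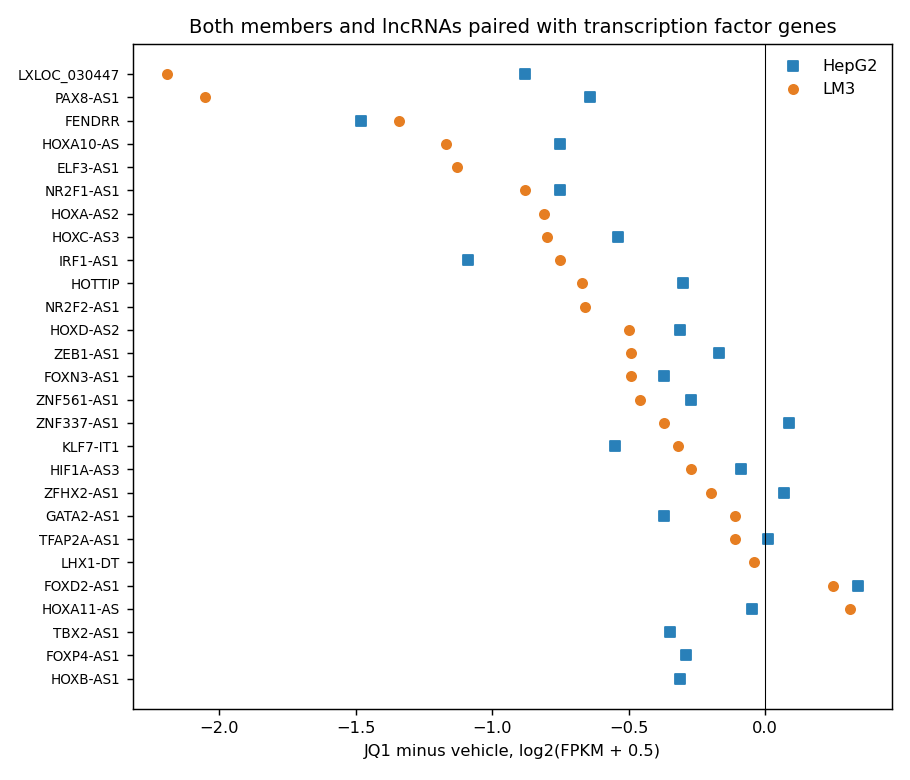
JQ1 minus vehicle difference in log2(FPKM + 0.5) of PAX8-AS1, LXLOC_030447 and the tested lncRNAs paired with transcription factor genes in HepG2 (squares) and LM3 (circles), ordered by the LM3 value. Both members stand at the low end in LM3, at -2.05 and -2.19, which is what chose them, followed by FENDRR at -1.34.

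The loci most like PAX8-AS1 were sought by the root mean square difference between profiles of log2(FPKM + 0.5) over the 8 libraries, each profile taken relative to its mean within a line. The closest was LXLOC_033243 (chromosome 2, 204320642 to 204340188, minus strand) at 0.094. It was at 0.31 and 0.26 FPKM with JQ1, against 2.37 and 2.52 FPKM with vehicle in LM3, and at 0.05 and 0.08 FPKM, against 0.32 and 0.30 FPKM in HepG2. LXLOC_024257 on chromosome 17, opposite the kinase scaffold gene KSR1, followed at 0.12, and LXLOC_016689 on chromosome 14 at 0.14. The nearest loci with a gene name were LINC00670 (0.18), AC124067.4 (0.21), CEACAM16-AS1 (0.21), AP005137.2 (0.24) and LINC02747 (0.24). CEACAM16-AS1 was at 0.74 and 0.84 FPKM, against 3.10 and 3.36 FPKM in LM3, and at 0.54 and 0.68 FPKM, against 1.12 FPKM in both HepG2 vehicle libraries. LINC02747 stood lower in HepG2 than PAX8-AS1 did, at 0.06 and 0.03 FPKM with JQ1, against 0.20 and 0.14 FPKM. All of these were picked for the resemblance, and the libraries are shared by every profile.

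For the whole series, FPKM summed to 29369 to 35742 per library, with 11230 to 12332 loci above 0. Read depth is unknown, since the tables hold FPKM alone. Since the tables hold lncRNAs, the lines were checked on 12 liver-lineage lncRNAs, of which 8 had values. Of these, 3 reached a mean of 0.5 FPKM in LM3 and 4 in HepG2. H19, an imprinted RNA abundant in fetal tissues, made up nearly all of their sum of 311 to 349 FPKM in LM3 and 2047 to 2258 FPKM in HepG2. HNF4A-AS1, the partner of a hepatocyte factor gene, was at 0 FPKM in all LM3 libraries, and in HepG2 at 0 FPKM in both JQ1 libraries, against 0.04 FPKM in both vehicle libraries. Of the 8 liver markers, JQ1 libraries were below vehicle libraries without overlap for 1 in LM3 and 5 in HepG2, and above them for 0 in either line. Among all loci with values, 28% in LM3 and 24.4% in HepG2 were lower in this way, and 16.8% and 20.4% were higher. HULC, H19 and LINC01018 overlapped in both lines. CPS1-IT1, from an intron of a urea-cycle gene, was at 0.41 and 0.26 FPKM with JQ1, against 1.34 and 1.41 FPKM with vehicle in LM3, and at 1.33 and 1.22 FPKM, against 6.84 and 6.79 FPKM in HepG2. In HepG2, LINC01485 was at 0.28 and 0.46 FPKM with JQ1, against 0.98 and 0.94 FPKM with vehicle, and LINC00261 at 0.05 and 0.08 FPKM, against 0.48 and 0.64 FPKM. Their part in the result was not tested. Of 6 thyroid and kidney lncRNAs, 5 had values, which summed to 0.78 to 1.40 FPKM in LM3 and 0.16 to 0.36 FPKM in HepG2. In each line 1 of the 5 (20%) was lower with JQ1 without overlap, beside 28% of all loci in LM3 and 24.4% in HepG2. LHX1-DT, the partner of a kidney factor gene and also among the partners above, gave most of the LM3 sum, at 0.86 and 0.49 FPKM with JQ1 and 0.54 and 0.87 FPKM with vehicle. In bulk RNA, fewer cells with PAX8-AS1 and less of it in each cell cannot be told apart.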

How the data were processed

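The libraries were rRNA-depleted and paired-end, per the labels' protocols. Per the file headers, each line has its own table of FPKM, which the authors deposited with 2 decimals. Per the submitters' processing notes, Bowtie 0.12.2, hg19 and mm8 were involved, with no role stated. Coordinates fit GRCh38: of 8453 Ensembl IDs with values in GENCODE 29, 100% had the same chromosome and 83.9% the same start. No source used here names the counting tool, its annotation or its use of strand. Each table lists 23161 loci, and 15469 had values, 8481 of them with a symbol.

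JQ1 was compared with vehicle within each table in limma 3.58.1 under R 4.3.3, with trend and robust options, after a log2(FPKM + 0.5) transform. Loci entered if their mean over a line's 4 libraries reached 0.5 FPKM, with Benjamini-Hochberg adjustment over all loci tested and a threshold of 0.05. The difference between lines came from 1 limma fit over 8 libraries, for 5035 loci that passed in both tables. The limma step was run on simulated data with the same spread at every locus, which cannot speak to calls of loci near the filter. No count test was run, since FPKM alone were used. The members and lists were chosen with earlier results of these data known. Named were both members, the nearest 4 tested neighbours on each side and called neighbours, up to 6 called partners per line, and the 5 named and 3 LXLOC loci with the nearest profiles among 7343 loci. LXLOC_030449, LXLOC_032582, LINC02966, AC016745.2, FAM138B, H19, HULC, LINC01018, LHX1-DT, HNF4A-AS1, CPS1-IT1, LINC01485 and LINC00261 were added after their values were seen. Alternatives covered the pseudocount, the filter, scaling, limma settings, a replicate block, the window and leaving out each library. Tables and figures were made with matplotlib 3.10.9, NumPy 2.4.6 and pandas 2.3.3 in Python 3.11.15.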

Additional observations from a re-analysis of the deposited data

How the results depend on the processing

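PAX8-AS1 and LXLOC_030447 kept a negative difference under each alternative run. JQ1 and vehicle libraries did not overlap for either, so only the scaling alternatives could have reversed the sign. In LM3 the fall is also what chose them. In HepG2 both calls held under 7 alternatives besides leaving out libraries. All of these but the fit without the filter kept the 0.5 FPKM filter, which both members passed only through their vehicle libraries. Without 1 library the log2 difference in HepG2 ran from -0.69 to -0.60 for PAX8-AS1 and from -0.91 to -0.85 for LXLOC_030447. With a filter at 1 FPKM neither could be fitted in HepG2. In LM3 the values were -2.44 and -2.82 with a pseudocount of 0.1 and -1.72 and -1.75 with 1, as the pseudocount's construction gives, and leaving out a library gave -2.14 to -1.95 and -2.21 to -2.17. LXLOC_030447 in LM3 was at -2.11 with libraries centred on their medians and -2.06 after quantile normalization. LM3 minus HepG2 was -1.28 with a pseudocount of 1 and -1.30 after quantile normalization for PAX8-AS1, and -1.25, -1.17, -1.24 and -1.17 with pseudocounts of 0.1 and 1, centring and quantile normalization for LXLOC_030447, with ranges of -1.50 to -1.31 and -1.34 to -1.28 without 1 library. Scaling libraries to their medians gave 0.367 FPKM for PAX8-AS1 in HepG2 with JQ1, and 3.8 and 0.785 FPKM for LXLOC_030447 with vehicle in LM3 and HepG2.

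Over all loci limma called 825 in LM3 and 819 in HepG2 without the filter, against 1511 and 1480, and 975 in HepG2 with a filter at 1 FPKM. Leaving out a library gave 0 in LM3 in every case and 0 to 519 in HepG2. Neighbours called in HepG2 were 0 without the filter, 0 with a filter at 1 FPKM and 0 to 1 without a library. In LM3 they were 2 in plain limma (no trend, no robust option) and 0 whichever library was left out. Called partners were 4 in LM3 without the filter, and leaving out a library gave 0 there and 0 to 3 in HepG2. The causes of these changes were not tested. The replicate numbers are shared by label alone: the replicate differences with JQ1 and vehicle correlated at 0.135 in LM3 and -0.0345 in HepG2 over loci. With replicates as a block limma called 1215 loci in LM3 and 1453 in HepG2, and 10 partners in LM3 and 4 in HepG2. Both HepG2 member calls held with the block (limma adjusted p = 0.0213 and 0.0127), under the same 0.5 FPKM filter. FPKM without depth give no counting error per locus.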
